A study of Mus musculus with 6 samples.

Results

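The genes described here are 9 transcription factor genes of the HOX and TALE homeobox families: Hoxa5, Hoxa7, Hoxa9 and Hoxa10 from the HOXA cluster, Meis1, Meis2 and Meis3, and Pbx2 and Pbx3. They were taken by symbol from the 34199 gene symbols for which reads were counted, and 4 of them (Hoxa9, Meis1, Pbx2 and Pbx3) carried enough reads to be tested. RNA-seq was performed on mouse iGMPs (strain C57Bl/6), which are granulocyte-macrophage progenitors immortalized by HOXA9 fused to the ligand-binding domain of a mutant estrogen receptor, with a GFP reporter driven by the Lysozyme promoter. All cultures carried the fusion and the reporter, grew with stem cell factor and were harvested at 24 h, with 2 libraries per group. In the CAF-1 OFF condition, 500 µM IPTG induced a short hairpin RNA against Chaf1b, a subunit gene of the histone chaperone CAF-1, while estradiol (E2) was kept at 150 ng/ml. Control cultures also received IPTG and kept E2, but the labels do not name their vector or clone. In the HOXA9 OFF condition, E2 was washed out, and the labels do not say whether IPTG was present or which clone was used, so E2 need not be the only difference between HOXA9 OFF and control. Nothing in the labels says whether libraries of a group came from separate cultures, so p-values measure only the spread between these libraries.

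HOX proteins of the A cluster bind DNA weakly alone and gain affinity and selectivity from TALE partners, the MEIS and PBX proteins, which bind next to them on composite sites. HOXA9, HOXA10 and HOXA7 are genes of early hematopoietic cells that are switched off as myeloid cells mature, and HOXA9 with MEIS1 is the classical pair of acute myeloid leukemia. PBX3 and PBX2 can join that pair, and PBX proteins also serve as partners of HOX proteins bound without MEIS. In iGMPs the ligand acts on the fusion protein, so a transcript count reports how much Hoxa9 RNA was present and not how active the protein was.

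Reads assigned to genes numbered 16773560 to 25170898 per library, at which 3 counts, taken as the floor of detection, equal 0.118 to 0.182 CPM (counts scaled to a common library size). Such floors cover counting error only. Relative to control, Chaf1b was lower in CAF-1 OFF, with a log2 fold change (log2FC) of -2.71 ± 0.20 (SE) and a q, the FDR of the edgeR quasi-likelihood test, of 0.0198. This call was lost with the replicate number as a block (edgeR q = 0.0562) and in the fits without CAF-1 OFF 2 or either control (edgeR q = 0.0505 to 0.115). Chaf1b was also called lower in HOXA9 OFF than in control (-0.63 ± 0.18, edgeR q = 0.0396), a call lost with the replicate block (edgeR q = 0.0566) and without any control or HOXA9 OFF library (edgeR q = 0.0747 to 0.201). The progenitor label was checked with 10 marker genes, all of which were detected, among them Mpo (4109 to 8546 CPM) and Kit (262 to 810 CPM). None of the 10 was called in CAF-1 OFF against control, where 0.0321% of all genes were, while 4 were lower and 2 higher in HOXA9 OFF, where 22% of all genes were called. Elane and Ms4a3, which were not called in CAF-1 OFF, differed there by 2.18-fold (edgeR q = 0.325) and 2.11-fold (edgeR q = 0.238), higher in CAF-1 OFF and with no overlap between the groups. Of 12 markers of B, T, erythroid and mesenchymal cells, 2 to 4 were at 0 in each library. The T cell genes Cd3e and Cd3g were at 0 throughout, while the T cell gene Lck had 0.338 to 4.70 CPM. The summed level was 30.1 and 30.5 CPM for CAF-1 OFF and 21.8 and 38.5 CPM for control. For HOXA9 OFF it was 19.97 and 21.6 CPM. Without Pdgfrb, at 13.2 to 24.4 CPM the most abundant of them, the sum was 5.93 to 17.0 CPM over all libraries. In bulk RNA, fewer cells with a transcript and less transcript per cell cannot be told apart. The call rule was a 1.5-fold change or more with q under 0.05.

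Within the HOXA cluster, Hoxa9 was the only gene read above trace level. The stretch from Hoxa2 to Hoxa13, on chromosome 6 from 52112350 to 52210874 in mm9, spans 98.53 kb, and all of its Hoxa genes lie on the minus strand. Of the 17 annotated symbols of this stretch in the count tables, Hoxa9 took 33344 of 33355 reads over all libraries. The remaining 11 reads fell on 3 genes, with at most 2 reads of a gene in a library.

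**Figure D1:**
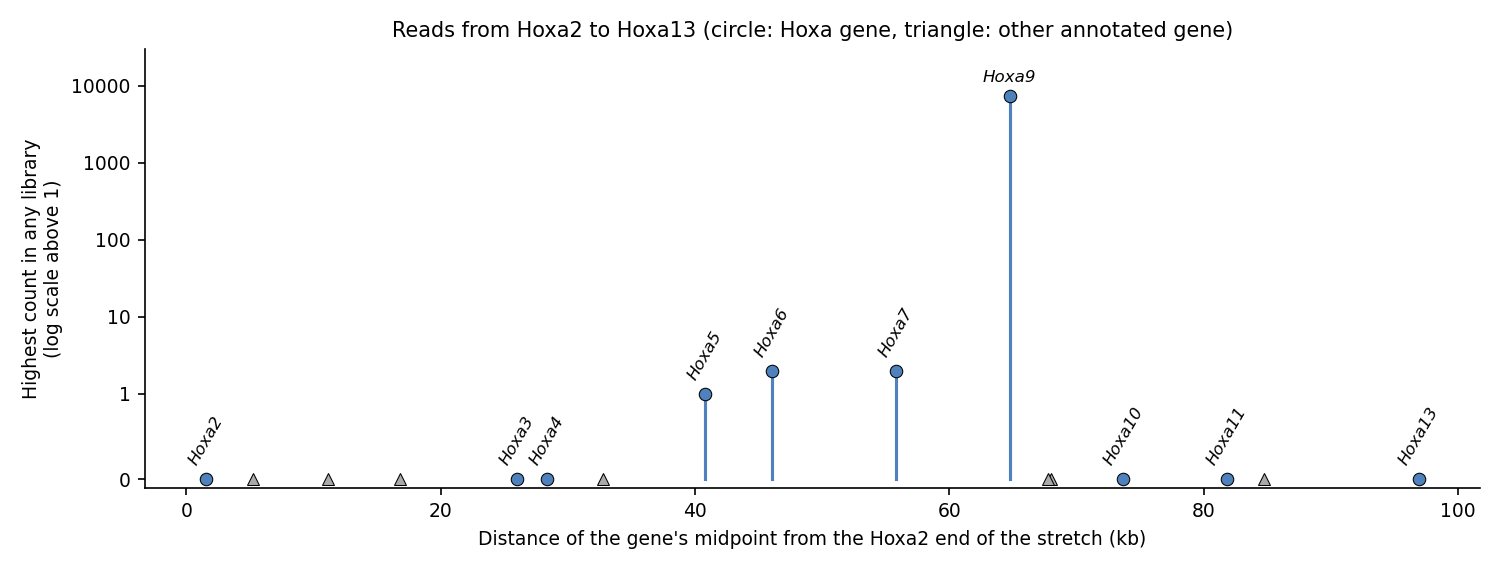
The highest count in any of the 6 libraries (vertical axis, logarithmic above 1) for each counted gene from Hoxa2 to Hoxa13, placed by the distance of its midpoint from the Hoxa2 end in kb. Hoxa9 stands at 7379 counts, and every other gene lies between 0 and 2.

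Hoxa5 (chromosome 6, 52151753 to 52154586), a myeloid regulator of the middle of the cluster, had 1 read in CAF-1 OFF 2, 1 in control 1 and 0 in the other 4 libraries. Hoxa7 (chromosome 6, 52164490 to 52171853), a neighbor of Hoxa9 that is commonly expressed with it, had 2 and 2 reads for CAF-1 OFF, 2 and 0 for control and 0 and 0 for HOXA9 OFF. Hoxa10 (chromosome 6, 52181196 to 52190853), the neighbor on the other side and also a gene of early myeloid cells, had 0 reads in all 6 libraries. All of these values lie under the floor of 3 counts per library, so no fold is given and differences between groups were not detectable at this depth.

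Among all 39 Hox genes of the A, B, C and D clusters, 29 were at 0 in every library and 9 besides Hoxa9 had at least 1 read. Those 9 genes drew 24 reads in all, against 33344 for Hoxa9. The highest was Hoxb4, a gene of blood stem cells, with 4 reads in control 2, 2 in HOXA9 OFF 2 and 0 elsewhere.

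Hoxa9 itself (chromosome 6, 52173099 to 52181088, protein coding) had 204 and 271 CPM for CAF-1 OFF (3928 and 5342 counts), 277 and 214 CPM for control (7040 and 3681 counts) and 356 and 362 CPM for HOXA9 OFF (7379 and 5974 counts). The CAF-1 OFF and control ranges overlapped, whereas both HOXA9 OFF libraries lay above the other 4. The log2FC of CAF-1 OFF against control was -0.05 ± 0.17 (edgeR q = 0.95, 95% interval -0.46 to 0.37). It took the other sign without CAF-1 OFF 1 (0.14) and without control 1 (0.15). HOXA9 OFF against control gave 0.55 ± 0.17 and missed the call on both criteria (edgeR q = 0.0535, and a change under 1.5-fold). It was called without control 1 (0.74, edgeR q = 0.0485). In 6 other alternatives the adjusted value was under the threshold and the 1.5-fold minimum was not reached, namely DESeq2 (adjusted p = 0.0137), no filter (edgeR q = 0.00255), the 4 libraries compared (edgeR q = 0.0282), the block with crossed CAF-1 OFF numbers (edgeR q = 0.0150) and the fits without CAF-1 OFF 1 (edgeR q = 0.0282) or 2 (edgeR q = 0.0283). It stood above the threshold in the others, among them the fits without control 2 (0.38, edgeR q = 0.25), without HOXA9 OFF 1 (edgeR q = 0.149) or 2 (edgeR q = 0.154), with the replicate block (edgeR q = 0.0812) and under library size alone (0.47, edgeR q = 0.0807). The direct contrast was called, with CAF-1 OFF lower than HOXA9 OFF by a log2FC of -0.60 ± 0.17 (edgeR q = 0.0412). That call was lost without CAF-1 OFF 1 (-0.41, edgeR q = 0.142), in the fit to these 4 libraries alone (-0.58, under the fold minimum), without HOXA9 OFF 1 (edgeR q = 0.125), without HOXA9 OFF 2 (edgeR q = 0.127), under library size alone (edgeR q = 0.0612) and with the replicate block (edgeR q = 0.0635).

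Counts per gene, the only values used here, do not separate the fusion transcript from the endogenous gene. The rest of the fusion comes from an estrogen receptor gene, and reads were also assigned to the mouse receptor gene Esr1 (chromosome 10, 5340927 to 5734948). The species of each part of the fusion is not given in the sources used here. Esr1 had 83.4 and 130.5 CPM for CAF-1 OFF, 131 and 99.9 CPM for control and 180 and 180 CPM for HOXA9 OFF, and so placed the 6 libraries in the same order as Hoxa9 apart from the HOXA9 OFF pair. The number of Esr1 reads per Hoxa9 read was 0.409 and 0.482 for CAF-1 OFF, 0.473 and 0.467 for control and 0.507 and 0.496 for HOXA9 OFF. The ratio was lowest in CAF-1 OFF 1, where both genes were lowest, and highest in HOXA9 OFF 1. Against control, Esr1 had a log2FC of -0.11 ± 0.22 in CAF-1 OFF (edgeR q = 0.903) and 0.64 ± 0.22 in HOXA9 OFF (edgeR q = 0.0712). The HOXA9 OFF difference was called in 6 of the 15 alternatives, which were DESeq2 (adjusted p = 0.0221), no filter (edgeR q = 0.00112), the 4 libraries compared (edgeR q = 0.0191), the crossed block (edgeR q = 0.0157) and the fits without CAF-1 OFF 1 (edgeR q = 0.0188) or 2 (edgeR q = 0.0193). Esr1 was called lower in CAF-1 OFF than HOXA9 OFF, by a log2FC of -0.75 ± 0.22 (edgeR q = 0.044), which was lost without CAF-1 OFF 1 (-0.46) and without either HOXA9 OFF library (edgeR q = 0.113 to 0.132 in these fits), with the replicate block (edgeR q = 0.0653), under library size alone (edgeR q = 0.0609) and in the 4 libraries compared (edgeR q = 0.0510). In the annotation, 3 further symbols overlap Hoxa9 on the same strand, and the 2 of them that were counted, Mir196b and 9930038K12Rik, had 0 reads in every library. They share 85 and 186 bp of exon with Hoxa9. Their counts of 0 thus depend on how shared reads were counted and do not show that no reads fell there.

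**Figure D2:**
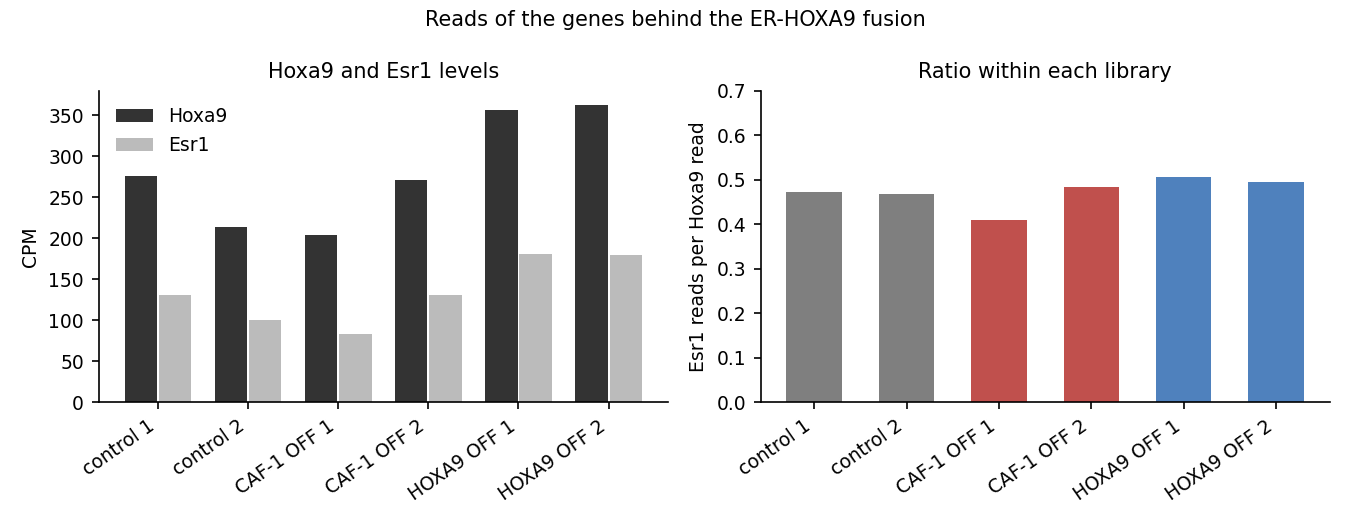
Left, CPM of Hoxa9 (dark) and Esr1 (light) in each library. Right, Esr1 reads per Hoxa9 read in the same libraries, with bars colored by group. Both genes are highest in the HOXA9 OFF libraries, and the ratio stays between 0.409 and 0.507.

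Among the MEIS genes, Meis1 was expressed and differed between groups, while Meis2 and Meis3 were at or near 0. Meis1 (chromosome 11, 18780433 to 18918961), the TALE partner that stabilizes HOXA9 on its sites, had 42.8 and 56.3 CPM in control (1090 and 970 counts), 31.1 and 29.7 CPM in CAF-1 OFF (599 and 587 counts) and 11.0 and 13.5 CPM in HOXA9 OFF (228 and 223 counts). No library of a group overlapped another group, with control highest and HOXA9 OFF lowest. Meis1 fell in HOXA9 OFF, by a log2FC of -2.02 ± 0.18 (edgeR q = 0.000946), which is 4.05-fold lower than control. It was higher in CAF-1 OFF than HOXA9 OFF, by 1.31 ± 0.18 (edgeR q = 0.00346). Both of these calls held in all 15 alternatives, with log2FC values of -2.21 to -1.81 and of 1.18 to 1.47 in the fits without a library. CAF-1 OFF against control gave -0.70 ± 0.17, for which the unadjusted p was 0.00521 and the call was missed (edgeR q = 0.26). It was called when no expression filter was applied (-0.71, edgeR q = 0.013), and its adjusted value ranged from 0.013 to 0.842 over the 15 alternatives. Progenitor markers moved in the same HOXA9 OFF libraries (4 of 10 lower, among them Kit, Cd34 and Flt3, and 2 higher, Fcgr3 and Ms4a3), and of the markers of other cells 2 were called lower there, among them Lck. Their part in the Meis1 difference was not tested.

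**Figure D3:**
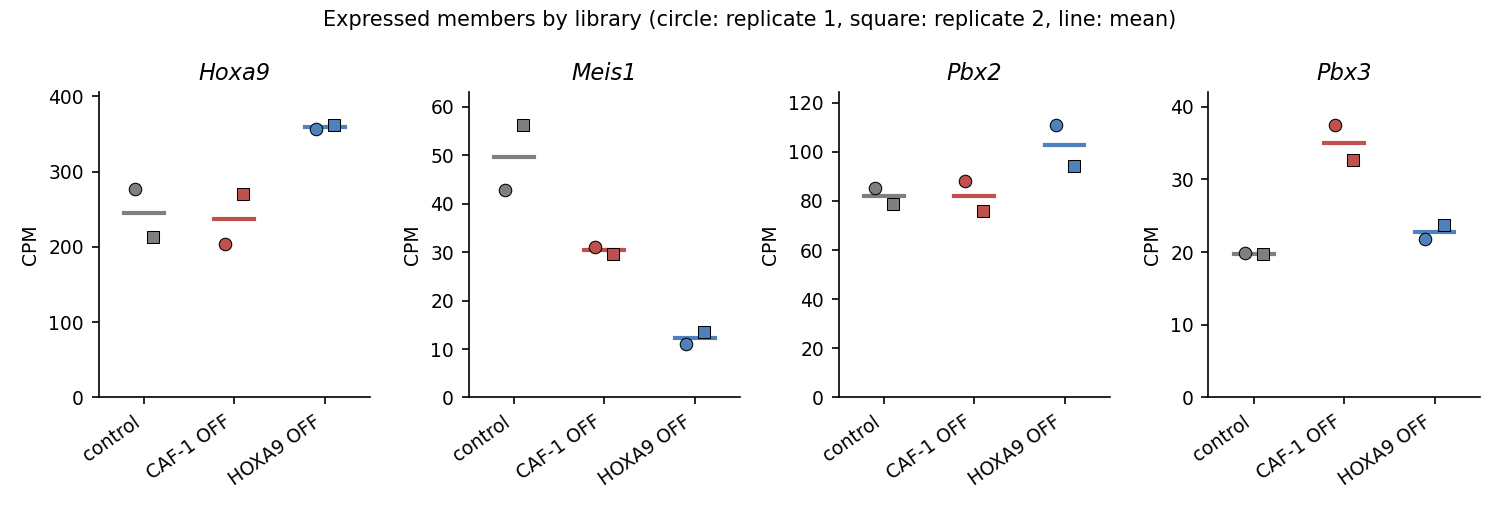
CPM (linear axis from 0) of the 4 tested genes in each library, grouped by condition. Points are libraries and lines are group means (n = 2). Meis1 descends from control through CAF-1 OFF to HOXA9 OFF, Pbx3 is highest in CAF-1 OFF, and Hoxa9 is highest in HOXA9 OFF.

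Meis2 (chromosome 2, 115688800 to 115891575), a paralog of Meis1 used in other tissues and some leukemias, had 0 reads in every library. Meis3 (chromosome 7, 16760729 to 16771853), the least studied paralog in blood, had 0 and 1 reads for CAF-1 OFF, 1 and 2 for control and 5 and 2 for HOXA9 OFF. Only HOXA9 OFF 1 exceeded 3 counts, and Meis3 was too low to be tested. On the strand opposite Meis1, the annotated gene Gm16140 shares 896 bp of exon with it and had 0 reads in all libraries.

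RefSeq promoters (GRCm38.p6) were matched for 8 of the 9 genes, in 9 windows of 250 bases before the transcription start. The window of Meis1, whose calls held in all alternatives, and that of Pbx2, which was called in no comparison, are given with CpG dinucleotides in capitals.
Meis1, chr11:19018970-19019219, minus strand: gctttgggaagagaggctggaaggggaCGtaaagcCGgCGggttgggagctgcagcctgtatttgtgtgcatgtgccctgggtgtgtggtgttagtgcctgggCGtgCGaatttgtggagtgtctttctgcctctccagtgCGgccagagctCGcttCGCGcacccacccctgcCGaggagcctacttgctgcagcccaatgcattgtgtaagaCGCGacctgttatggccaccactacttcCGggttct
Pbx2, chr17:34592009-34592258, plus strand: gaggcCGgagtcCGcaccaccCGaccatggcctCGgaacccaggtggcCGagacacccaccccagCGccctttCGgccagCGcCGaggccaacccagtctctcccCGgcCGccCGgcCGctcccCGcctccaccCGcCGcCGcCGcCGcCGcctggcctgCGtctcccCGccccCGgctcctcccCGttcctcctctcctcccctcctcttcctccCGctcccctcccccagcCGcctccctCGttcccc
The Meis1 window holds 13 CpG and the Pbx2 window 27, against a median of 6 over all 32851 RefSeq promoter windows. Hoxa9 had the fewest of the matched windows (3) and Hoxa5 the most (28). The letters TGATNNAT, a form of the joint HOX and PBX site, and TGACAG, the core of the MEIS site, were searched on both strands. Neither was found in any of the 9 windows, so no overlap between them arose. They occur in 7.68% and 15.9% of all promoter windows, and their absence says only that these letters are not in these bases.

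Both PBX genes were expressed, and Pbx3 differed between groups while Pbx2 was called in none. Pbx2 (chromosome 17, 34728211 to 34734345), a broadly expressed PBX gene, had 88.2 and 75.9 CPM for CAF-1 OFF (1697 and 1498 counts), 85.1 and 78.7 CPM for control (2166 and 1356 counts) and 111 and 94.3 CPM for HOXA9 OFF (2301 and 1555 counts). The CAF-1 OFF range enclosed the control range, and both HOXA9 OFF libraries lay above them. The log2FC was 0.00 ± 0.13 in CAF-1 OFF (edgeR q = 0.999, 95% interval -0.31 to 0.31), 0.33 ± 0.13 in HOXA9 OFF (edgeR q = 0.106, interval 0.02 to 0.64) and -0.32 ± 0.13 between CAF-1 OFF and HOXA9 OFF (edgeR q = 0.106). Pbx2 shares 227 bp of exon with its neighbor Gpsm3 on the same strand. Gpsm3 had 815 and 524 counts for CAF-1 OFF, 1059 and 654 for control and 1930 and 1200 for HOXA9 OFF. Reads tallied as ambiguous between genes equalled 3.00 to 3.28% of gene counts per library. How many of them lay in the shared stretch is not given in the sources used here, nor is the overlap mode.

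Pbx3 (chromosome 2, 34026977 to 34228660), the PBX gene most often linked to HOXA9 in leukemia, had 37.5 and 32.6 CPM for CAF-1 OFF (722 and 644 counts), 19.9 and 19.7 CPM for control (506 and 339 counts) and 21.8 and 23.8 CPM for HOXA9 OFF (452 and 392 counts). Both CAF-1 OFF libraries lay above the other 4. Pbx3 was higher in CAF-1 OFF than HOXA9 OFF, by a log2FC of 0.62 ± 0.14 (edgeR q = 0.016). That call was lost without CAF-1 OFF 1 (0.52, edgeR q = 0.0600), without HOXA9 OFF 1 (edgeR q = 0.101) and without HOXA9 OFF 2 (edgeR q = 0.0600). Against control the difference was larger, at 0.83 ± 0.14 (95% interval 0.50 to 1.15), but missed the call (edgeR q = 0.153). It was called by the DESeq2 Wald test (0.83, adjusted p = 0.00049) and with no filter (0.81, edgeR q = 0.00458). HOXA9 OFF differed from control by 0.20 ± 0.14 (edgeR q = 0.302).

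Set against all genes, CAF-1 OFF against control called 0 of the 4 tested genes, where 4 of 12460 genes were called (0.0321%, with 0.0241% higher and 0.00803% lower). At an unadjusted p under 0.05 there were 2 of the 4 (Meis1 and Pbx3) and 1330 of all genes (10.7%). DESeq2 called 1 of the 4 and 192 of all genes. HOXA9 OFF against control called 1 of the 4, Meis1, against 22% of all genes (13% higher and 8.97% lower). CAF-1 OFF against HOXA9 OFF called 3 of the 4, Meis1 and Pbx3 higher and Hoxa9 lower in CAF-1 OFF, against 22.1% of all genes (9.56% higher and 12.6% lower). Comparisons against control share the control libraries, and with 4 genes these shares are only described.

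**Figure D4:**
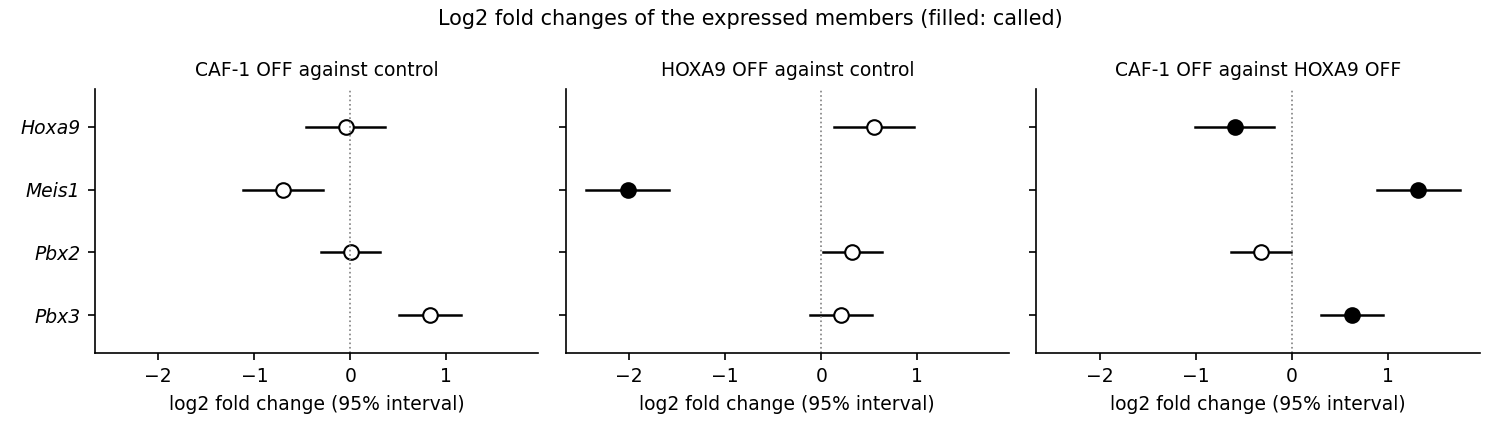
Log2FC values of the 4 tested genes in the 3 comparisons, with 95% intervals of the quasi-likelihood fit. Filled points were called. Meis1 is at -2.02 in HOXA9 OFF against control and at 1.31 in CAF-1 OFF against HOXA9 OFF, and the Pbx2 point lies within 0.33 of 0 in each comparison.

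Compared per kb of merged exon, levels in control ran from Hoxa9 (70.2 ± 12.7 CPM per kb, SD, n = 2) through Pbx2 (22.5 ± 1.24) and Meis1 (6.70 ± 1.29) to Pbx3 (3.09 ± 0.0217), and no neighbors in this order overlapped. In CAF-1 OFF the last 2 changed places, with Pbx3 at 5.86 and 5.10 and Meis1 at 4.21 and 4.02 CPM per kb. The same order held in HOXA9 OFF, with Pbx3 at 3.41 and 3.71 and Meis1 at 1.49 and 1.83 CPM per kb. Levels per kb of merged coding sequence gave the same orders. Since the fusion transcript need not carry all annotated Hoxa9 exons, its level per coding kb is given as well, at 251 and 333 CPM per kb for CAF-1 OFF, 340 and 263 for control and 438 and 446 for HOXA9 OFF. The ratio of Pbx2 CPM to Pbx3 CPM, both on the CPM scale without length, was 2.35 and 2.33 for CAF-1 OFF, 4.28 and 4.0 for control and 5.09 and 3.97 for HOXA9 OFF.

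Genes around the HOXA axis were then described by 7 lists with 86 genes, of which 46 could be tested. None was called in CAF-1 OFF against control by edgeR, where 10 had an unadjusted p under 0.05 and DESeq2 called 3, beside 1330 (10.7%) and 192 of the 12460 genes tested. In HOXA9 OFF against control 21 were called (8 higher and 13 lower), and in CAF-1 OFF against HOXA9 OFF 23 were called (15 higher and 8 lower in CAF-1 OFF). The lists were drawn up with earlier results of these data known, so their shares (45.7% and 50%) are no independent evidence beside the backgrounds of 22% and 22.1%.

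Of the other TALE and PBX-binding genes, 6 of 7 were tested, and in HOXA9 OFF against control 3 were lower and 1 higher, with a median log2FC of -0.65, where the median of all genes was -0.00. Tgif2, a repressor of the TALE class, fell from 10.9 and 11.0 CPM in control to 3.09 and 3.09 CPM (log2FC -1.82 ± 0.19, edgeR q = 0.00151). Its paralog Tgif1 fell by 1.19 ± 0.14 on the log2 scale (edgeR q = 0.0018), from 80.1 ± 1.00 to 35.04 ± 5.41 CPM. The PBX paralog Pbx4 fell from 9.46 ± 2.71 to 3.67 ± 0.552 CPM (edgeR q = 0.0117), a call lost without control 2 (edgeR q = 0.0671) or without HOXA9 OFF 1 (edgeR q = 0.0727). Pbxip1, whose product binds PBX proteins and inhibits their binding to DNA with HOX partners, rose from 30.9 ± 8.88 to 103 ± 14.9 CPM (log2FC 1.75 ± 0.21, edgeR q = 0.00218). These 4 genes were called between CAF-1 OFF and HOXA9 OFF in the opposite sense, of which Pbx4 was lost without CAF-1 OFF 1 (edgeR q = 0.0519) or without HOXA9 OFF 1 (edgeR q = 0.0918) and Tgif1 without HOXA9 OFF 1 (edgeR q = 0.0801). None of them was called in CAF-1 OFF against control, where the lowest value was -0.53 (Tgif1). Pknox1 was not called in any comparison.

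Among regulators of HOXA transcription, mainly the MLL complex and the elongation factors that act with it, 12 of 15 were tested and Cdx1, Cdx2 and Cdx4, homeobox activators of Hox genes, were at 0 throughout. In HOXA9 OFF 2 were lower and 1 was higher than in control. Calls among these 12 genes were thus near the share over all genes (22%), so no response of the list as a whole follows. The elongation factor gene Mllt3 fell from 55.3 ± 1.40 to 19.3 ± 1.74 CPM (log2FC -1.52 ± 0.16, edgeR q = 0.00151), and Psip1, whose product tethers the MLL complex to chromatin, fell from 157 ± 17.0 to 92.5 ± 15.1 CPM (edgeR q = 0.00898). Aff1, another elongation factor gene, rose from 138 ± 32.3 to 306 ± 27.9 CPM (edgeR q = 0.0151). The Psip1 call was lost without control 1 (edgeR q = 0.0517) or without HOXA9 OFF 2 (edgeR q = 0.0523), and the Aff1 call without control 2 (edgeR q = 0.0786) or without HOXA9 OFF 1 (edgeR q = 0.0649). These 3 were also called between CAF-1 OFF and HOXA9 OFF, with the reverse direction, where Aff1 was lost without CAF-1 OFF 1 or either HOXA9 OFF library (edgeR q = 0.0835 to 0.155), with the replicate block (edgeR q = 0.0669) and under library size alone (edgeR q = 0.0539). The 5 genes that flank the cluster included Skap2, which rose in HOXA9 OFF from 134 ± 11.7 to 225 ± 8.18 CPM (log2FC 0.75 ± 0.10, edgeR q = 0.00335) and was lower in CAF-1 OFF than HOXA9 OFF (-0.89 ± 0.10, edgeR q = 0.00214). Snx10, another flanking gene, was called lower in CAF-1 OFF (43.7 ± 4.24 CPM) relative to HOXA9 OFF (77.7 ± 10.7 CPM, edgeR q = 0.0148), but not without CAF-1 OFF 2 (edgeR q = 0.0600) or without HOXA9 OFF 2 (edgeR q = 0.0762). Hibadh and Tax1bp1 were not called, and Evx1 was at 0.

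Genes known as HOXA9 and MEIS1 targets in progenitors or leukemia had the widest span of log2FC values among the lists in HOXA9 OFF against control, from -6.05 (Flt3) to 3.02 (Pim1). All 16 were tested, and in HOXA9 OFF 7 were lower and 2 higher than in control, with a median log2FC of -0.48. The receptor tyrosine kinase gene Flt3 fell from 237 and 329 CPM to 5.02 and 3.46 CPM (log2FC -6.05 ± 0.25, edgeR q = 0.000102). The pseudokinase gene Trib2 fell from 15.6 and 14.9 CPM to 0.0483 and 1.33 CPM (-4.57 ± 0.77, edgeR q = 0.00663), and the log2FC was -8.13 without HOXA9 OFF 2, where a single read is left, and -3.51 without HOXA9 OFF 1. Hlf, a leucine zipper factor of stem cells, fell from 254 ± 13.7 to 21.4 ± 2.5 CPM (edgeR q = 0.000102), and Sox4 fell from 90.2 ± 21.1 to 9.04 ± 1.45 CPM (edgeR q = 0.000579). In CAF-1 OFF these 4 genes stood at 259 ± 9.35 CPM (Flt3), 44.0 ± 20.8 CPM (Trib2), 396 ± 52.2 CPM (Hlf) and 64.2 ± 16.4 CPM (Sox4), which exceeds HOXA9 OFF by log2FC values of 2.83 to 6.10. The highest of these, that of Trib2, was 9.66 without HOXA9 OFF 2 and 5.05 without HOXA9 OFF 1. No target gene was called in CAF-1 OFF against control, where the median log2FC was 0.31. The largest differences there were those of Trib2 (1.53 ± 0.56, edgeR q = 0.406) and Camk2d (1.37 ± 0.40, edgeR q = 0.321), neither of which had overlapping groups. Bcl2 had the lowest value (-0.98 ± 0.66, edgeR q = 0.652) and its groups overlapped, with 37.8 and 31.6 CPM for CAF-1 OFF against 105 and 31.4 CPM for control. With no filter these 3 were called, as were Pim1, Ccnd3, Hlf and the flanking gene Snx10. DESeq2 called Pim1, Ccnd3 and Hlf there, chosen here because of that call, with log2FC values in edgeR of 1.17 ± 0.14 (edgeR q = 0.0751), 0.75 ± 0.15 (edgeR q = 0.194) and 0.64 ± 0.13 (edgeR q = 0.199). Pim1, a survival kinase gene, stood at 27.2 and 22.6 CPM for CAF-1 OFF, 10.7 and 11.4 CPM for control and 87.4 and 91.9 CPM for HOXA9 OFF.

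**Figure D5:**
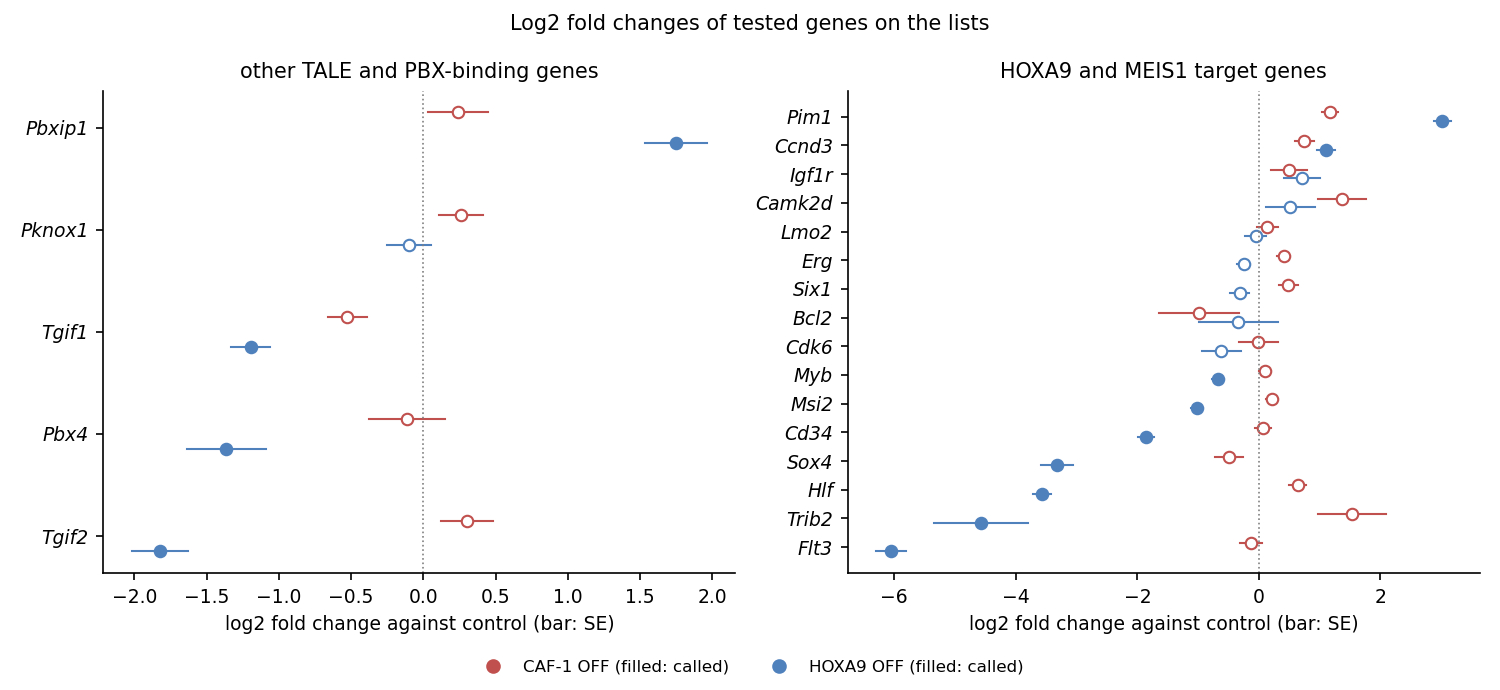
Log2FC values against control (bars, SE) of 5 of the 6 tested TALE and PBX-binding genes (left) and HOXA9 and MEIS1 target genes (right), in CAF-1 OFF (red) and HOXA9 OFF (blue). Filled points were called. All filled points belong to HOXA9 OFF, from Flt3 at -6.05 to Pim1 at 3.02.

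Of 8 genes whose products share sites or complexes with HOXA9, 3 were higher and 1 lower in HOXA9 OFF than in control. Sfpi1, which encodes the myeloid factor PU.1, rose from 171 ± 23.0 to 500 ± 85.0 CPM (log2FC 1.55 ± 0.17, edgeR q = 0.00162). Runx1, a regulator of blood stem cells, rose from 40.5 ± 2.04 to 113 ± 3.39 CPM (edgeR q = 0.000946), and the acetyltransferase gene Ep300 from 74.6 ± 15.9 to 133 ± 2.31 CPM (edgeR q = 0.0451), a call lost in each fit without a control or HOXA9 OFF library (edgeR q = 0.0564 to 0.201), under library size alone (edgeR q = 0.0598) and with the replicate block (edgeR q = 0.0701). The repressor gene Gfi1 fell from 399 ± 7.39 to 229 ± 27.7 CPM (edgeR q = 0.00353). Cebpa, which encodes a granulocyte factor bound at many HOXA9 sites, had log2FC values of 0.21 ± 0.24 in CAF-1 OFF (edgeR q = 0.803) and 0.03 ± 0.24 in HOXA9 OFF (edgeR q = 0.946). In CAF-1 OFF against control none of the 8 was called, and their log2FC values ran from -0.18 to 0.26.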

How the data were processed

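Total RNA was sequenced with a strand-specific kit in 6 libraries. Per the labels and the methods of the study, the authors aligned reads to mm9 with STAR and counted them with HTSeq. The deposited values are raw read counts per gene symbol. The annotation, strand setting and overlap mode are not given in the sources used here, so overlapping genes are uncertain. Tally lines (5 per file) were left out.

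Groups came from sample titles. Genes were kept by filterByExpr (12460 tested), scaled by TMM (factors 0.954 to 1.03) and fitted over all 6 libraries with the quasi-likelihood test of edgeR 4.0.16 in R 4.3.3, with Benjamini-Hochberg adjustment over all tested genes. Alternatives included DESeq2 1.42.0. CPM used TMM-scaled library sizes, and ± is SD (n = 2) for levels and SE for fold changes. Libraries of a group differed beyond sampling noise (chi-square per degree of freedom at least 21.4).

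Members and lists were chosen with earlier results of these data known. Named were all members, up to 4 called genes per list and comparison by size, the 3 genes most like each called member, and label checks (Chaf1b, Esr1 and progenitor markers). Outside this rule, Hoxb4, Gpsm3 and other overlapping genes, Lck, Pdgfrb, Pknox1, Hibadh, Tax1bp1, Pim1, Ccnd3, Camk2d, Bcl2 and genes at 0 were named after their values were seen. Coordinates are 1-based from GENCODE on NCBIM37 (mm9), and promoters from RefSeq on GRCm38.p6. Some genes counted in the lists are not reported here by name.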

Additional observations from a re-analysis of the deposited data

How the results depend on the processing

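The calls of Meis1 in HOXA9 OFF against control and in CAF-1 OFF against HOXA9 OFF held in every alternative run. The number of members called in CAF-1 OFF against control went from 0 to 1 with DESeq2 and to 2 with no filter, and stayed at 0 to 0 in the fits without a library. In HOXA9 OFF against control it was 1 to 2 without a library. In CAF-1 OFF against HOXA9 OFF it went from 3 to 1 at 2-fold with an FDR under 0.01 and was 1 to 3 without a library. Calls among list genes in CAF-1 OFF against control went from 0 to 3 with DESeq2, to 7 with no filter and to 1 with the crossed block, and those in CAF-1 OFF against HOXA9 OFF from 23 to 13 at 2-fold with an FDR under 0.01. Among all genes, CAF-1 OFF against control called 4, but 192 with DESeq2, 378 with no filter, 9 in the 4 libraries compared, 2 with the replicate block, 0 at 2-fold with an FDR under 0.01, and 0 to 10 without a library. The other comparisons called 2740 and 2755, with 987 and 948 at the latter thresholds, 1602 and 2595 without control 2, and 1750 and 1711 without HOXA9 OFF 1. The cause of these shifts was not tested.

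The log2 fold change of Pbx2 in CAF-1 OFF against control, 0.001, took the other sign under library size alone (-0.0026), with no filter (-0.010) and with the replicate block (-0.0010), and ran from -0.11 to 0.12 without a library. For Hoxa9 in the same comparison it ran from -0.25 to 0.15 and for Esr1 from -0.45 to 0.17. A tally of 810 values under alternatives covered the tested members, Esr1, Chaf1b and the named list genes in comparisons where they were called. List genes called by DESeq2 in CAF-1 OFF against control were included. Other named values, such as those of Elane, Pknox1 and Bcl2, were not. Of the 810, 717 kept direction and side of the threshold, 67 lost a call, 17 gained one and 9 changed sign.

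Replicate numbers were shared by the groups, but the labels do not say that they pair the libraries. Over 12460 genes, same-numbered deviations correlated at 0.469 for control and HOXA9 OFF. The values were -0.169 for control and CAF-1 OFF and 0.0335 for CAF-1 OFF and HOXA9 OFF. Same-numbered control and HOXA9 OFF libraries thus deviated alike in part, and those of CAF-1 OFF did not. The reason was not tested. With the replicate block the members called were 0, 1 and 2, and the list genes called 0, 20 and 22. A block with the CAF-1 OFF numbers crossed, chosen after seeing the data, called 0, 1 and 3 members, 1, 22 and 25 list genes, and 71, 2994 and 3030 of all genes.

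With 2 libraries per group, a fit without 1 library assumes that the remaining library varies like the other groups. Genes under 3 counts per library cannot be compared at this depth.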

Other observations

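For the members called in at least 1 comparison, the genes with the most similar profile were sought among 9611 genes with a mean level of at least 5 CPM, by the root mean square difference of log2 CPM centred over the 6 libraries. Nothing about shared function or control follows from such likeness. For Meis1 they were Ptprf, a receptor phosphatase gene (0.149), Sox12 (0.153) and Gm129 (0.198). Ptprf had 16.3 and 24.0 CPM in control, 14.9 and 13.5 CPM in CAF-1 OFF and 4.92 and 4.79 CPM in HOXA9 OFF, and Sox12, a SoxC factor gene like Sox4, had 37.8 and 47.0, 32.0 and 21.7, and 9.79 and 10.7 CPM in the same order. Both were lowest in HOXA9 OFF, which follows from their selection by likeness to Meis1.

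For Hoxa9 they were Xpr1 (0.0433), Zfp592 (0.0438) and Rab44 (0.0513), and Esr1 ranked 82 of 9611 (0.0993). Xpr1, a phosphate exporter gene, had 74.7 and 62.9 CPM in control, 56.5 and 78.5 CPM in CAF-1 OFF and 100.4 and 105 CPM in HOXA9 OFF. For Pbx3 they were 2010001M06Rik (0.104), Pvrl2 (0.11) and C78339 (0.114). Pvrl2, which encodes the adhesion molecule nectin-2, had 14.97 and 15.9 CPM in control, 31.1 and 27.5 CPM in CAF-1 OFF and 21.2 and 19.6 CPM in HOXA9 OFF.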
